A study of Homo sapiens with 12 samples.

Results

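ATF4 and 9 regulators that work with it in the integrated stress response were followed in cultured human bile duct cells: ATF4, ATF3, ATF5, CEBPG, CEBPB, DDIT3, TRIB3, PPP1R15A, DDIT4 and SESN2. They were chosen by gene symbol, and each symbol matched 1 gene identifier, so that the account covers 10 of the 62703 genes in the count table. RNA sequencing measured them in H69, a line of cholangiocytes (the epithelial cells of the bile ducts) that is immortalised with the large T antigen of simian virus, a protein that binds p53. All cells were starved of serum for 6 h and then left overnight, without serum, in 1 of 4 conditions. The vehicle group received neither agent, the TGFβ group received transforming growth factor β at 10 ng/mL, the Aramchol group received Aramchol at 30 µM, and the last group received both agents. Aramchol joins a bile acid to a long saturated fatty acid and lowers the activity of stearoyl-CoA desaturase. The labels state 1 dose of it for the whole series, which was applied here to both groups that received it. The medium used before starvation contained hydrocortisone, insulin and epidermal growth factor, and whether any of these remained during treatment was not given in the sources used here. The question for these genes was how each agent, alone and with the other, moved the transcripts of the stress response.

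In the integrated stress response, kinases that sense misfolded protein, lack of amino acids, viral RNA or lack of haem phosphorylate the initiation factor eIF2 on its alpha subunit. Most protein synthesis then slows, while the messenger RNA of ATF4 is translated more, because short upstream reading frames in its leader are bypassed. ATF4 is a basic leucine zipper (bZIP) transcription factor that pairs with C/EBP proteins and switches on genes for amino acid supply, for feedback and, when stress lasts, for cell death. RNA sequencing reads the amount of transcript only, so neither translation of ATF4 nor its protein was measured.

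Each of the 4 groups had 3 libraries, with 52279922 to 70339925 counts each, and all 10 genes passed the filter on low counts, with 291 counts (DDIT3, vehicle library 3) the lowest and 21139 (DDIT4) the highest of any of them in a library. Levels are in CPM, counts scaled to a common library size with TMM factors, and a gene was called when its Benjamini-Hochberg adjusted p, over the 21567 genes tested, was under 0.05 in edgeR's quasi-likelihood test. The labels do not say that the 3 libraries of a group came from separate cultures, so the tests measure the spread between libraries, which may be technical. Of the cholangiocyte markers described here, 5 reached 1 CPM in vehicle cells, KRT7 with a mean of 552 CPM and KRT19, SOX9, EPCAM and CLDN4 between 5.52 and 27.4 CPM, while AQP1, CFTR, ONECUT1 and SPP1 were under it (0.385 CPM or less). In these bulk samples, fewer cells of one kind and less RNA per cell cannot be told apart. The 4 libraries numbered 3 stood apart from the others on the third principal component (17.0 to 35.1 against -20.4 to -5.50). The meaning of that number is not stated by the labels. Vehicle library 3 also left its own group on the second component (-5.32 against 24.8 and 27.3). It lay there toward the Aramchol libraries (-15.6 to -10.1), and it is part of every comparison with vehicle.

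**Figure D1:**
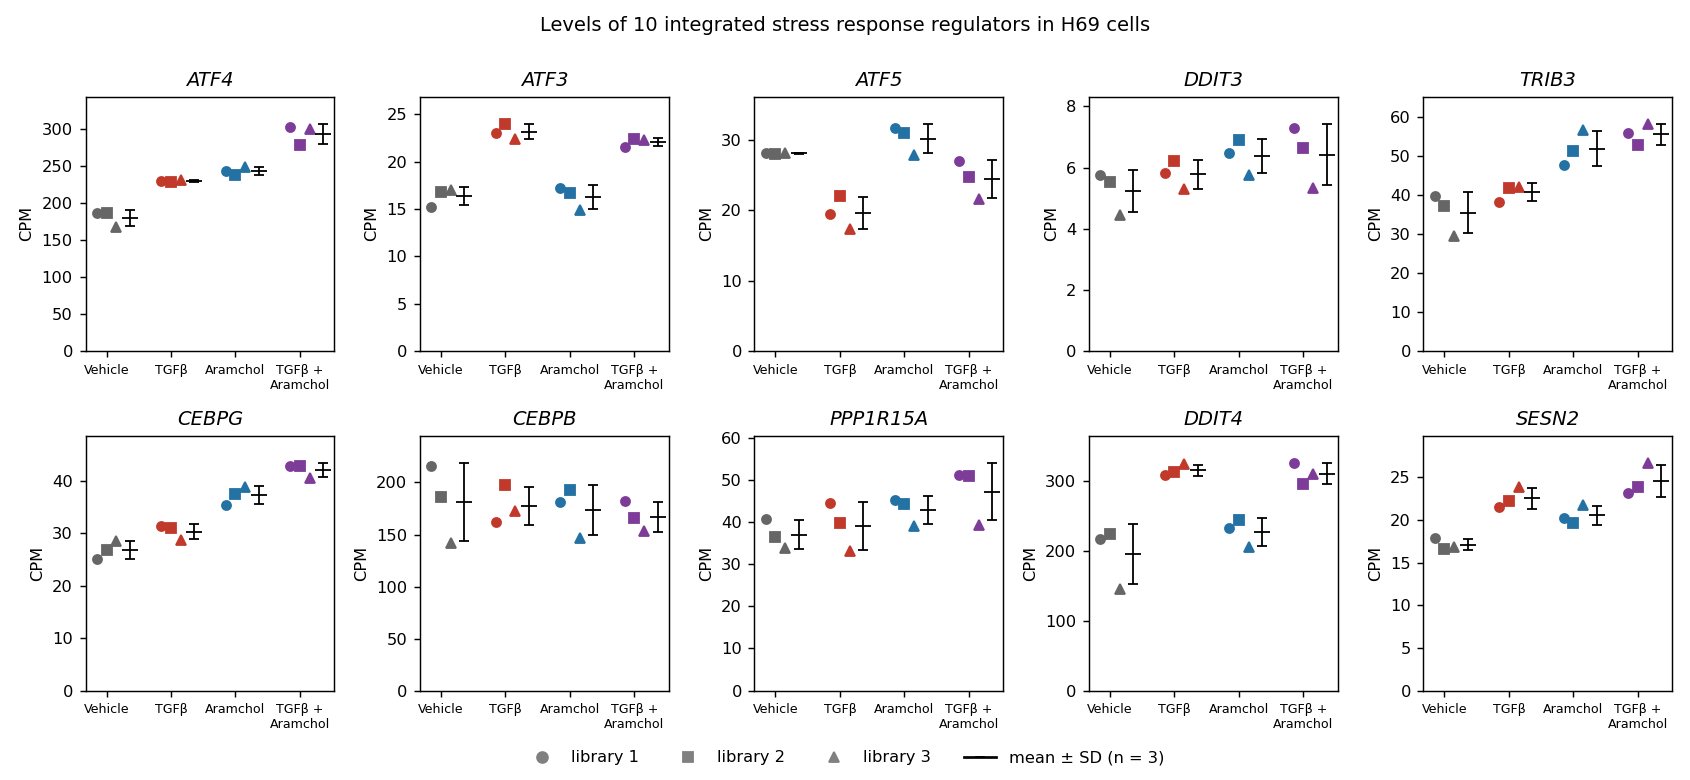
Level of each of the 10 regulators in CPM (y axis, starting at 0) in the 12 libraries, by treatment group; symbols mark the library number, and black bars give the mean ± SD of 3 libraries. ATF4 and CEBPG stepped up from vehicle to TGFβ to Aramchol to both agents without overlap between neighbouring groups, while the libraries of DDIT3 and CEBPB overlapped between all neighbouring groups.

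With Aramchol, 3 of the 10 regulators rose above vehicle, ATF4, TRIB3 and CEBPG, and none fell, where 0.357% of all genes tested were called, 0.236% higher and 0.121% lower. The median log2 fold change was 0.24 over the 10 genes and -0.01 over all genes tested. When Aramchol was given on top of TGFβ, ATF4, TRIB3 and CEBPG again rose and no other of the 10 was called, where 2.25% of all genes were called against TGFβ alone, 0.890% higher and 1.36% lower. The medians were then 0.21 and -0.00069. The other 7 genes were not called in either of these comparisons, with log2 values between -0.09 (CEBPB) and 0.32 (ATF5). At an unadjusted p under 0.05 in edgeR, SESN2 and DDIT3 were also higher with Aramchol. On top of TGFβ this held for ATF5 and PPP1R15A, and none of the 10 was lower in either comparison. That made 5 of the 10 in each, where 2533 and 3705 of the 21567 genes tested had such a p. DESeq2 called 4 of the 10 in each, all of them higher, and 396 and 1045 of 42087 genes. The Aramchol and TGFβ groups were not tested against each other.

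More of the set was called with TGFβ against vehicle than with Aramchol, and so were far more of all genes tested. ATF4, ATF3, CEBPG, DDIT4 and SESN2 rose and ATF5 fell, so that 6 of 10 were called, where 37.0% of all genes were called (18.9% higher and 18.1% lower). In cells that also received Aramchol, the same 5 rises and the fall of ATF5 were called against Aramchol alone, where 30.2% of all genes were (16.0% higher and 14.2% lower). With both agents against vehicle, 7 rose (ATF4, ATF3, TRIB3, CEBPG, PPP1R15A, DDIT4 and SESN2) and none fell in edgeR (ATF5 had a lower level at an unadjusted p of 0.0451), where 35.2% of all genes were called (18.2% higher and 17.0% lower). Libraries of the 2 groups did not overlap for 6 of the 10 with TGFβ (46.6% of all genes), and for 5 with Aramchol (16.0%). The same held for 4 with Aramchol on top of TGFβ (23.6%), and for 6 with TGFβ on top of Aramchol (44.6%). With both agents against vehicle it held for 7 (44.0%). Among these, ATF3 was lower with Aramchol on top of TGFβ. ATF5 was lower in its comparisons of TGFβ-treated groups with groups without TGFβ, and all others were higher. Since the comparisons with vehicle share the vehicle libraries, and those with both agents share the 3 libraries of that group, their values are set side by side below and are not independent of each other.

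**Figure D2:**
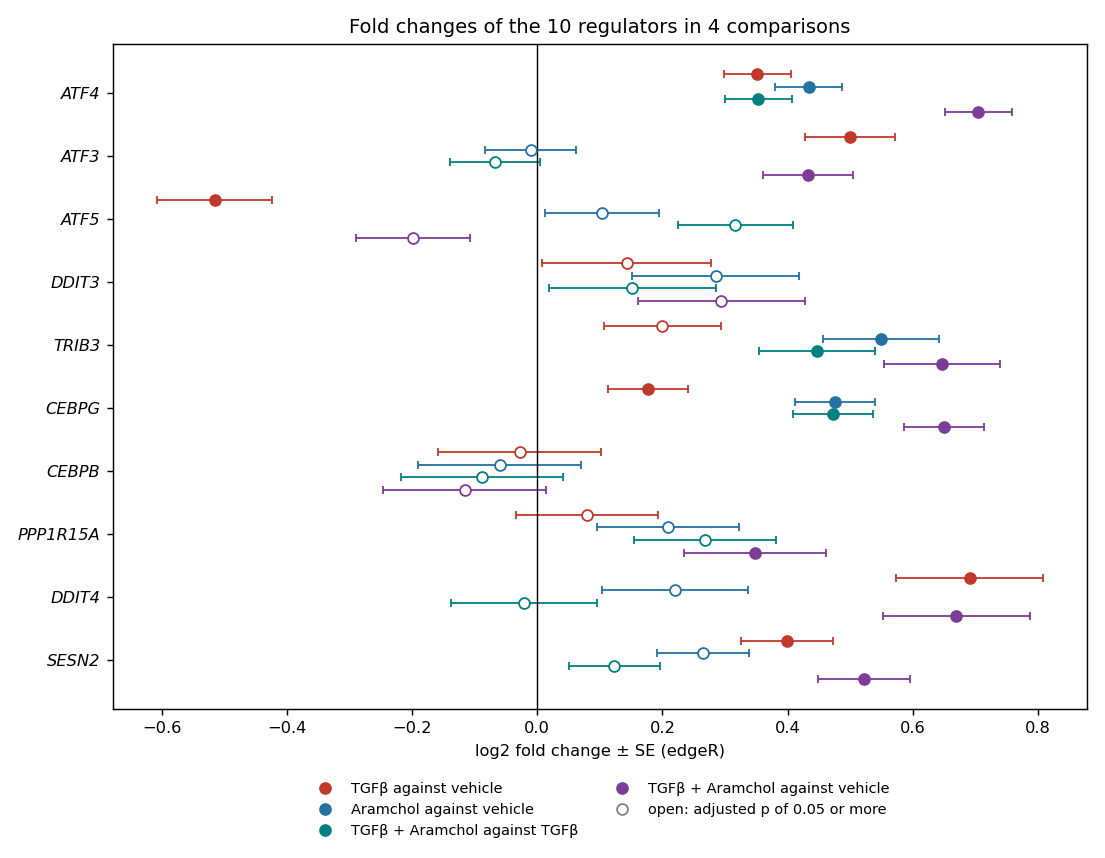
Log2 fold change ± SE from edgeR (x axis) of the 10 regulators in 4 comparisons; filled points have an adjusted p under 0.05 over all genes tested. The points of TGFβ against vehicle run from -0.52 (ATF5) to 0.69 (DDIT4), and the filled points of both Aramchol comparisons are those of ATF4, TRIB3 and CEBPG.

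ATF4 (ENSG00000128272, GRCh38, chromosome 22, 39519695 to 39522683, plus strand) encodes the central transcription factor of the response. Its 3 libraries stood at 186, 187 and 167 CPM in vehicle cells, at 229.9, 228 and 231 CPM with TGFβ, at 243, 238 and 249 CPM with Aramchol and at 303, 278 and 299 CPM with both agents. No group overlapped another, and vehicle libraries were the lowest and those with both agents the highest. ATF4 rose 1.28-fold with TGFβ (log2 0.35, SE 0.05, adjusted p = 7.64e-05, edgeR) and 1.35-fold with Aramchol (log2 0.43, SE 0.05, adjusted p = 0.00248, edgeR). Aramchol added 1.28-fold to TGFβ (log2 0.35, SE 0.05, adjusted p = 0.00542, edgeR), and both agents together gave 1.63 times the vehicle level (log2 0.70, SE 0.05, adjusted p = 4.98e-08, edgeR). Both Aramchol calls were kept when any 1 of the 12 libraries was left out, but the adjusted p of Aramchol against vehicle was 0.0660 when only those 6 libraries were fitted. The 4 processed copies of the gene that the table lists, ATF4P1 to ATF4P4, had 2 to 256 counts over all libraries against 179812 for ATF4.

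CEBPG (ENSG00000153879, chromosome 19, 33373685 to 33382686, plus strand) encodes C/EBP gamma, a bZIP protein without a strong activation domain of its own that pairs with ATF4. Its libraries read 25.0, 26.9 and 28.6 CPM in vehicle cells, 31.4, 31.0 and 28.7 CPM with TGFβ, 35.4, 37.5 and 38.9 CPM with Aramchol, and 42.8, 42.8 and 40.6 CPM with both. As for ATF4, all 4 groups were separate, but the gap between the highest vehicle library (28.6) and the lowest TGFβ library (28.7) was narrow. CEBPG rose 1.39-fold with Aramchol (log2 0.48, SE 0.06, adjusted p = 0.00440, edgeR; 0.117 when only these 2 groups were fitted) and 1.39-fold when Aramchol was added to TGFβ (log2 0.47, SE 0.06, adjusted p = 0.00268, edgeR). The rise with TGFβ was 1.13-fold both without Aramchol (adjusted p = 0.0415, edgeR) and with it (adjusted p = 0.0492, edgeR). These calls stood near the threshold, and without 1 library they were kept in 5 of 12 and 4 of 12 fits, with adjusted p from edgeR up to 0.158 (without vehicle library 1) and 0.185 (without Aramchol library 1).

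TRIB3 (ENSG00000101255, chromosome 20, 362835 to 397559, plus strand) encodes a pseudokinase that ATF4 induces and that in turn holds ATF4 and DDIT3 activity back. It read 39.7, 37.1 and 29.5 CPM in vehicle cells, 38.1, 41.9 and 42.1 CPM with TGFβ, 47.8, 51.3 and 56.5 CPM with Aramchol and 55.7, 52.7 and 58.0 CPM with both. The 6 libraries with Aramchol were all above the 6 without it, while vehicle and TGFβ libraries overlapped, and so did those of the 2 Aramchol groups. TRIB3 rose 1.46-fold with Aramchol (log2 0.55, SE 0.09, adjusted p = 0.0231, edgeR) and 1.36-fold when Aramchol was added to TGFβ (log2 0.45, SE 0.09, adjusted p = 0.0228, edgeR). Its log2 value with TGFβ alone was 0.20 (SE 0.09, adjusted p = 0.108, edgeR; 0.0283 without vehicle library 1), and 0.10 (SE 0.09) with TGFβ in cells that had Aramchol. Without Aramchol library 2 the adjusted p of Aramchol against vehicle was 0.0921 in edgeR, without Aramchol library 3 it was 0.0522, without vehicle library 2 it was 0.0645, and with only these 2 groups fitted it was 0.181. The comparison with TGFβ lost its call without any 1 of its own 6 libraries (adjusted p 0.0502 to 0.0996, edgeR).

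ATF3 (ENSG00000162772, chromosome 1, 212565334 to 212620777, plus strand), an early stress gene whose bZIP product represses many promoters, was called with TGFβ and not with Aramchol. It read 15.2, 16.8 and 17.0 CPM with vehicle, 23.0, 24.0 and 22.4 CPM with TGFβ, 17.2, 16.7 and 14.8 CPM with Aramchol and 21.6, 22.4 and 22.2 CPM with both. The 6 libraries with TGFβ were all above the 6 without it, and vehicle and Aramchol libraries overlapped. Those with both agents were all below those with TGFβ alone, though 22.39 CPM stood next to 22.40. ATF3 rose 1.41-fold with TGFβ (log2 0.50, SE 0.07, adjusted p = 4.57e-05, edgeR) and 1.36-fold with TGFβ in the presence of Aramchol (log2 0.44, SE 0.07, adjusted p = 0.000194, edgeR). Its log2 values with Aramchol were -0.01 (SE 0.07) against vehicle and -0.07 (SE 0.07) on top of TGFβ, neither of them called (adjusted p = 0.974 and 0.694, edgeR).

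In the RefSeq start-site windows of GRCh38.p14 (250 bases before to 50 after each start), the C/EBP-ATF response element, spelled TGATGNAA and searched on both strands, was found in CEBPG and ATF3 and in none of the other 8 genes. It occurs in 3.62% of the 35116 windows and in 4.46% of the 27305 genes that have one. The CRE (TGACGTCA) was found in PPP1R15A, the AP-1 site (TGANTCA) in ATF5 and DDIT3, and the endoplasmic reticulum stress element in none of the 10. They occur in 2.25%, 9.37% and 0.0916% of those genes. A match is a stretch of letters and not a measured binding site, and its absence from a window says nothing of ATF4. Both stretches with the C/EBP-ATF response element are shown because their genes were called in different comparisons, CEBPG with each agent and ATF3 with TGFβ. The difference between the genes was not tested. Capitals mark the element, which starts 42 bases before the start at 33374113 for CEBPG, inside an intron of a longer transcript, and 191 bases before the start at 212565407 for ATF3, outside the gene. CEBPG lies at chr19:33374060-33374089 and ATF3 at chr1:212565205-212565234, both on the plus strand.
CEBPG: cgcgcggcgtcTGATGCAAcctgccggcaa
ATF3: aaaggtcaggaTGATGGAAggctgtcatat

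ATF5 (ENSG00000169136, chromosome 19, 49928702 to 49933935, plus strand), a bZIP factor that is translated under stress in the way ATF4 is and that serves the mitochondrial stress response, was the one regulator that fell with TGFβ. It read 28.0, 28.0 and 28.1 CPM with vehicle, 19.5, 22.0 and 17.4 CPM with TGFβ, 31.7, 31.0 and 27.8 CPM with Aramchol and 27.0, 24.8 and 21.6 CPM with both. All TGFβ libraries were below the vehicle libraries, the group with both agents lay between them and overlapped with TGFβ alone, and Aramchol libraries overlapped with vehicle. ATF5 was 1.43-fold lower with TGFβ (log2 -0.52, SE 0.09, adjusted p = 0.000336, edgeR) and 1.23-fold lower with TGFβ in the presence of Aramchol (log2 -0.30, SE 0.09, adjusted p = 0.0192, edgeR). The second call was lost without Aramchol library 1, Aramchol library 2 or the library 3 of both agents, with adjusted p in edgeR of 0.0791, 0.0696 and 0.102. Aramchol on top of TGFβ gave a log2 value of 0.32 (SE 0.09) that was not called (adjusted p = 0.0875, edgeR; 0.0362 without library 3 of both agents). Both agents against vehicle gave -0.20 (adjusted p = 0.106, edgeR; 0.0469 without library 1 of both agents). ATF5 shares 565 exon bases, 19.5% of its own, with NUP62 on the opposite strand, and the labels do not state the strand setting of the counting, so that reads of the 2 genes could not be separated there.

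DDIT3 (ENSG00000175197, chromosome 12, 57516588 to 57521737, minus strand) encodes CHOP, the bZIP factor tied to cell death in prolonged stress. It read 5.75, 5.52 and 4.46 CPM with vehicle, 5.82, 6.23 and 5.29 CPM with TGFβ, 6.48, 6.89 and 5.77 CPM with Aramchol and 7.30, 6.65 and 5.33 CPM with both. The Aramchol libraries were all above the vehicle libraries, though 5.77 CPM stood next to 5.75, and every other pair of groups overlapped. No comparison was called with all 12 libraries: the log2 values were 0.14 (SE 0.13) with TGFβ, 0.28 (SE 0.13) with Aramchol and 0.29 (SE 0.13) with both agents against vehicle, with adjusted p of 0.451, 0.425 and 0.103 in edgeR. Without library 3 of both agents the last was called (adjusted p = 0.0288, edgeR). DDIT3 shares 355 exon bases, 27.2% of its own, with MARS1 on the opposite strand. MARS1, methionyl-tRNA synthetase, had 104229 counts over all libraries against 4531 for DDIT3 and was itself higher with Aramchol (log2 0.37, adjusted p = 0.0107, edgeR), and the part of its reads in the DDIT3 values was not tested.

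PPP1R15A (ENSG00000087074, chromosome 19, 48872212 to 48876059, plus strand) encodes GADD34, which brings protein phosphatase 1 to eIF2 and so closes the feedback loop. It read 40.8, 36.6 and 33.9 CPM with vehicle, 44.6, 39.7 and 33.2 CPM with TGFβ, 45.2, 44.3 and 39.0 CPM with Aramchol and 51.2, 51.1 and 39.4 CPM with both. Every pair of groups overlapped, and the library numbered 3 was the lowest in each group. It rose 1.27-fold with both agents against vehicle (log2 0.35, SE 0.11, adjusted p = 0.0255, edgeR), a call that was lost without vehicle library 2 or 3 or without library 1 or 2 of both agents (adjusted p 0.0688 to 0.110, edgeR) and with upper quartile scaling (0.0520). Its other log2 values, 0.08 with TGFβ, 0.21 with Aramchol and 0.27 for Aramchol on top of TGFβ, were not called.

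CEBPB (ENSG00000172216, chromosome 20, 50190830 to 50192668, plus strand) encodes C/EBP beta, a partner of ATF4 that is also a target of many other signals. It read 216, 186 and 141 CPM with vehicle, 162, 198 and 173 CPM with TGFβ, 181, 193 and 147 CPM with Aramchol and 182, 166 and 153 CPM with both. All groups overlapped, and the vehicle libraries alone spanned more than the 4 group means, which ran from 167 to 181 CPM. The log2 values against vehicle were -0.03, -0.06 and -0.12 for TGFβ, Aramchol and both (SE 0.13 each), and none was called (adjusted p 0.536 to 0.899, edgeR). With libraries 1 and 2 alone, CEBPB was called lower with both agents against vehicle (log2 -0.21, adjusted p = 0.0274, edgeR). With 231 of its exon bases (12.6%) shared with CEBPB-AS1, which had 951 counts against 132814, CEBPB is also uncertain by strand, though over few reads.

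The library number moved with several of these values. In the libraries numbered 3, DDIT3 and PPP1R15A were the lowest of the group in 4 of 4 groups and CEBPB and ATF5 in 3 of 4, while TRIB3 and SESN2 were the highest in 3 of 4. The differences from the mean of libraries 1 and 2 that lay farthest from 0 were -0.60 on the log2 scale for DDIT4 and -0.50 for CEBPB, both in vehicle cells, followed by DDIT3 and PPP1R15A with both agents and TRIB3 in vehicle cells (-0.38 each). When the fit had a term for these libraries, ATF5 and PPP1R15A were also called higher with Aramchol on top of TGFβ (adjusted p = 0.00792 and 0.0107, edgeR) and SESN2 with Aramchol against vehicle (0.0308). With both agents against vehicle, that fit also called DDIT3 higher (adjusted p = 0.0143, edgeR) and ATF5 lower (0.0197).

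**Figure D3:**
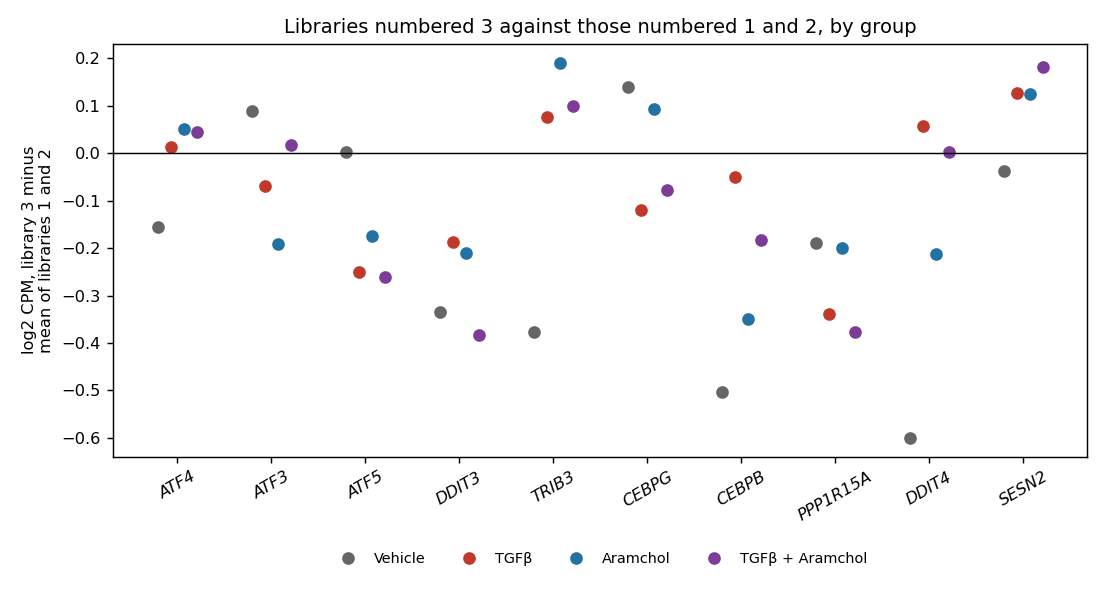
Log2 CPM of the library numbered 3 minus the mean of libraries 1 and 2 (y axis) for each regulator (x axis), with 1 point for each treatment group. All 4 points of DDIT3 and of PPP1R15A lie below 0, and the lowest point is DDIT4 in vehicle cells at -0.60.

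DDIT4 and SESN2 restrain mTORC1, the kinase complex that drives growth when nutrients suffice. DDIT4 (ENSG00000168209, chromosome 10, 72273919 to 72276036, plus strand) encodes REDD1, which acts through the TSC complex and is known to answer hypoxia and glucocorticoids as well as ATF4. Its libraries read 217, 224 and 145 CPM with vehicle, 308, 314 and 324 CPM with TGFβ, 232, 245 and 206 CPM with Aramchol and 326, 296 and 311 CPM with both. The 6 TGFβ libraries were all above the 6 others, and the 2 groups within each set overlapped. DDIT4 rose 1.61-fold with TGFβ (log2 0.69, SE 0.12, adjusted p = 0.000223, edgeR) and 1.37-fold with TGFβ in the presence of Aramchol (log2 0.45, SE 0.12, adjusted p = 0.00807, edgeR). Aramchol gave log2 values of 0.22 against vehicle and -0.02 on top of TGFβ (SE 0.12 each), which were not called. In the fit with no filter the value against vehicle was called (log2 0.22, adjusted p = 0.0286, edgeR). The call with TGFβ was kept in all 12 fits that left out 1 library, the low vehicle library 3 included.

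The start-site window of DDIT4 holds 1 match to ACGTG, the core of the hypoxia response element, searched on both strands. Each of the 2 windows of ATF4 holds a match on either strand, which overlap each other and lie in an exon. These letters are common, in 21.4% of all windows. The DDIT4 stretch is shown as the gene with the largest TGFβ rise of the 10; it lies at chr10:72273788-72273814 (GRCh38.p14, plus strand), outside the gene, with the core (capitals) starting 125 bases before the start at 72273924.
DDIT4: gaacgttgcttACGTGcgcccggagtc

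SESN2 (ENSG00000130766, chromosome 1, 28259518 to 28282491, plus strand) encodes sestrin 2, a leucine sensor that blocks mTORC1 through GATOR2 and is also a p53 target. It read 17.9, 16.6 and 16.8 CPM with vehicle, 21.5, 22.3 and 23.9 CPM with TGFβ, 20.2, 19.7 and 21.7 CPM with Aramchol and 23.1, 23.8 and 26.6 CPM with both. All 9 treated libraries were above the 3 vehicle libraries, and Aramchol overlapped with TGFβ. SESN2 rose 1.32-fold with TGFβ (log2 0.40, SE 0.07, adjusted p = 0.000460, edgeR) and 1.44-fold with both agents (log2 0.52, SE 0.07, adjusted p = 4.18e-05, edgeR). Against Aramchol alone, both agents gave 1.20-fold (adjusted p = 0.0135, edgeR), a call lost without Aramchol library 2 (0.0692) or library 3 of both agents (0.0841). Its log2 value of 0.26 (SE 0.07) with Aramchol was not called in that fit (adjusted p = 0.160, edgeR), but was with the replicate number as a block (0.0440).

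Same-numbered libraries deviated together in 4 of the comparisons, but between TGFβ and both agents only those numbered 3 stood out (correlation 0.545). Libraries numbered 1 and 2 correlated there at 0.168 and 0.147 with their own number, and at 0.211 and 0.291 with the other number. Fits with the number as a block called more genes. Aramchol against vehicle then had 4 called regulators in place of 3, SESN2 being added, and 464 genes of all in place of 77. Aramchol on top of TGFβ had 5 in place of 3, with ATF5 (adjusted p = 0.0131, edgeR) and PPP1R15A (0.00988) added, and 1519 genes of all in place of 486. Both agents against vehicle had 9 in place of 7, with DDIT3 higher (adjusted p = 0.0175, edgeR) and ATF5 lower (0.0260), and 8709 genes of all in place of 7593.

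The interaction, which asks whether the effect of TGFβ differed with Aramchol, was called for none of the 10 regulators and for 0.0139% of all genes by edgeR. None of the 10 had an unadjusted p under 0.05, as against 5.27% of all genes, and DESeq2 called none of the 10 either. At that share a set of 10 genes may well hold none. In simulated data edgeR recovered 14% of interactions of 1.25-fold, so the lack of calls does not show that the effects were equal. For ATF4 the interaction was -0.08 (SE 0.08) on the log2 scale, for CEBPG -0.0027 (SE 0.09) and for TRIB3 -0.10 (SE 0.13). The values farthest from 0 were -0.24 (SE 0.17) for DDIT4 and 0.21 (SE 0.13) for ATF5.

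Compared with each other per length of transcript (RPKM, CPM per kilobase), CEBPB, DDIT4 and ATF4 were the most abundant of the 10 in every group and DDIT3 and ATF3 the least. In vehicle cells CEBPB stood at 98.4 ± 20.4 RPKM (SD, n = 3), DDIT4 at 92.3 ± 20.5 and ATF4 at 68.9 ± 4.21, while ATF3 and DDIT3 stood at 4.05 ± 0.242 and 4.01 ± 0.528. The order of CEBPB and DDIT4 there was within the spread of the libraries. With both agents DDIT4 stood at 147 ± 7.05 RPKM, ATF4 at 112 ± 5.11 and CEBPB at 90.8 ± 7.93, and these 3 ranges did not overlap. ATF4 moved from the third to the second place.

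The genes around these regulators were read from 10 lists of known function, each kept whole. Their counts stand beside those over all genes tested. With TGFβ 18.9% of all genes were called higher and 18.1% lower. With Aramchol these shares were 0.236% and 0.121%, and on top of TGFβ 0.890% and 1.36%. In edgeR 2533 and 3705 of 21567 genes had an unadjusted p under 0.05 in these 2 Aramchol comparisons. Upstream, 22 genes of the eIF2 kinases, eIF2 itself, its exchange factor and its phosphatase were read. With TGFβ 4 of the 22 rose and 6 fell, where 18.9% and 18.1% of all genes did (median log2 0.03, against -0.03 over all genes). With Aramchol 0 were called by edgeR, with 6 at an unadjusted p under 0.05. In that comparison 3 were called by DESeq2, 3 with the block and 3 without vehicle library 3. With Aramchol on top of TGFβ 1 fell, and 3 were called with the block or without vehicle library 3. EIF2AK3, the kinase PERK of the endoplasmic reticulum, rose by log2 0.32 with TGFβ (adjusted p = 0.00153, edgeR). It rose by 0.43 with both agents against vehicle (adjusted p = 0.000130, edgeR). Its log2 values of 0.26 with Aramchol and 0.11 for Aramchol on top of TGFβ were not called (adjusted p = 0.143 and 0.441, edgeR). EIF2AK1, the kinase of haem lack, fell by 0.20 with TGFβ (adjusted p = 0.00556, edgeR). EIF2AK2, the RNA-sensing kinase PKR, and EIF2AK4, the amino acid sensor GCN2, were not called in any comparison. EIF2AK2 had log2 values of 0.33 with Aramchol and 0.33 for Aramchol on top of TGFβ (adjusted p = 0.139 and 0.0643, edgeR). DNAJC3, known as an inhibitor of some of these kinases, rose by 0.58 with TGFβ and fell by 0.36 when Aramchol was added to it (adjusted p = 0.00888, edgeR).

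Downstream, of 27 measured target genes of ATF4 for amino acid supply and stress, 18 rose and 2 fell with TGFβ (median log2 0.41, against -0.03 over all genes). With Aramchol 9 rose and none fell (median 0.36, against -0.01), and 7 rose and none fell when Aramchol was added to TGFβ (0.22, against -0.00069). CHAC1, which breaks down glutathione, went from 3.43 ± 0.636 CPM in vehicle cells to 9.10 ± 0.812 with Aramchol and from 4.72 ± 0.606 with TGFβ to 11.2 ± 1.55 with both (SD, n = 3). SLC7A11, the cystine transporter, went from 2.78 ± 0.272 to 8.16 ± 1.51 and from 4.26 ± 0.981 to 9.74 ± 1.41 CPM in the same pairs of groups. The neutral amino acid transporter gene SLC38A2 rose by log2 0.38 and 0.42 in the 2 comparisons (adjusted p = 0.0104 and 0.00251, edgeR). With TGFβ the smallest p values belonged to SLC7A5, VEGFA and SLC7A1. SLC7A5, another amino acid transporter, had a mean of 301 against 67.4 CPM. The growth factor gene VEGFA (log2 2.40) is also on the list of hypoxia targets below, and SLC7A1 had a log2 value of 0.90. The 9 genes called with Aramchol became 17 with the replicate block, 12 without vehicle library 3, 5 or fewer without vehicle library 1 or 2, any Aramchol library, TGFβ library 2 or library 2 of both agents, and 2 when only vehicle and Aramchol libraries were fitted. The 7 genes called for Aramchol on top of TGFβ became 12 with the block, 15 without vehicle library 3, and 4 without TGFβ library 1 or 2.

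The cytosolic aminoacyl tRNA synthetases, which load amino acids on tRNA and are largely ATF4 targets, showed 8 of 12 genes higher with TGFβ, 3 with Aramchol (5 with the replicate block) and 2 with Aramchol on top of TGFβ, and none lower. The 3 genes with Aramchol became 1 without vehicle library 2 or Aramchol library 1 or 2. The 2 genes on top of TGFβ became 0 without TGFβ library 1 or 2 or library 1 of both agents, and 1 without TGFβ library 3, Aramchol library 1 or 2, or library 2 or 3 of both agents. Among them TARS1 rose by log2 0.51, 0.39 and 0.23 in these 3 comparisons (adjusted p = 0.0375 for the last, edgeR). The other branches of the unfolded protein response were read in the same way: of 18 genes of the ATF6 and XBP1 arms, 13 rose and 1 fell with TGFβ, 0 were called with Aramchol (edgeR; 4 at an unadjusted p under 0.05, 0 by DESeq2, 1 with the block, 5 without vehicle library 3 and 6 with libraries 1 and 2 alone), and 7 fell and none rose when Aramchol was added to TGFβ (median log2 -0.27). The chaperone gene HSP90B1 stood at 795 ± 101 CPM with vehicle, 1402 ± 27.2 with TGFβ, 742 ± 48.1 with Aramchol and 1030.0 ± 53.9 with both, and CALR, the chaperone calreticulin, fell by 0.44 on the log2 scale when Aramchol was added to TGFβ (adjusted p = 0.0214, edgeR). Without any 1 TGFβ library, or library 1 or 2 of both agents, these 7 calls dropped to 1 or 0. ATF4, TRIB3 and CEBPG rose in the comparison in which 7 of these chaperone and degradation genes fell, and a test of the difference between the lists was not made.

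**Figure D4:**
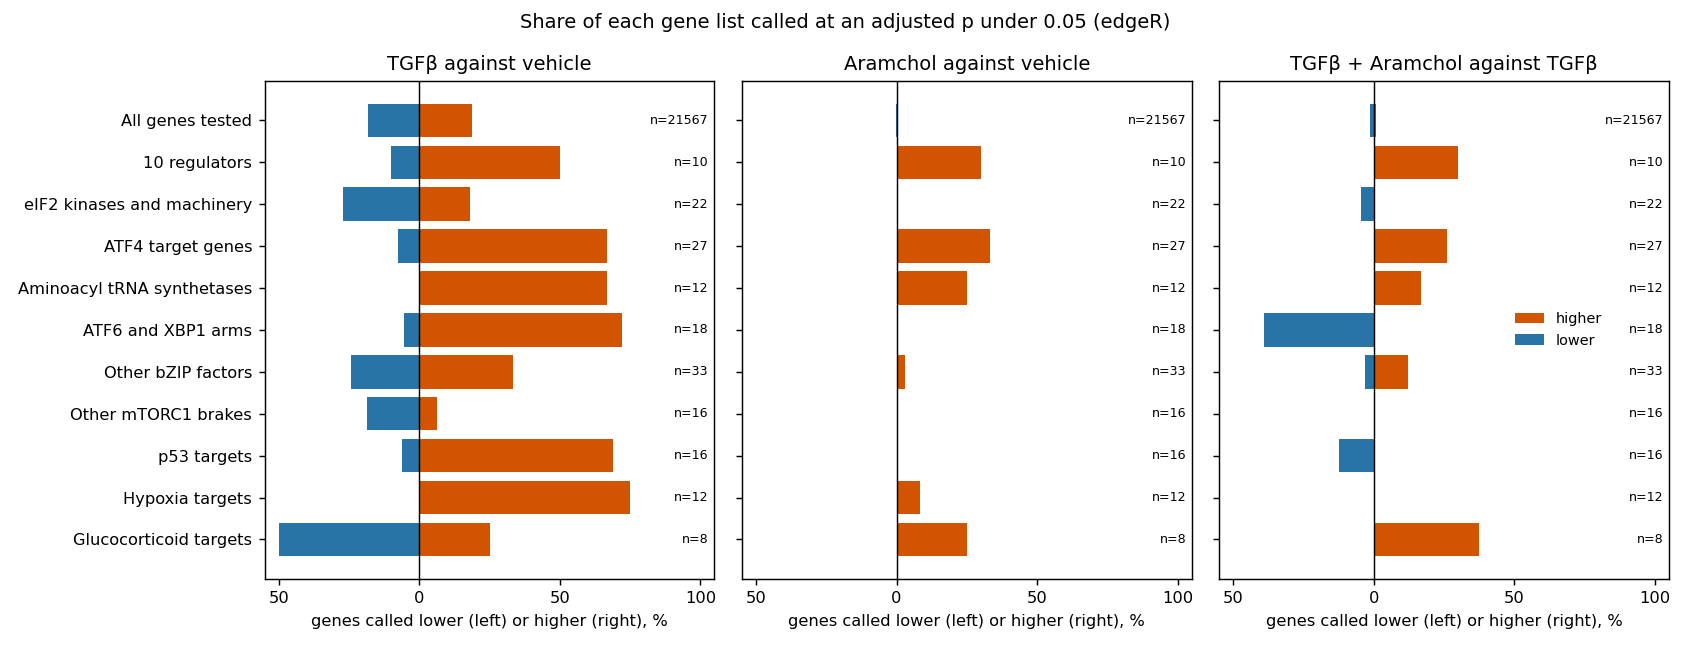
Share of each list's measured genes (n at the right) called higher (bars to the right) or lower (bars to the left) at an adjusted p under 0.05 in edgeR, in 3 comparisons, with all genes tested as the first row. ATF4 targets and tRNA synthetases have bars to the right in all 3 panels, while the ATF6 and XBP1 arms have 13 of 18 genes higher with TGFβ and 7 of 18 lower when Aramchol was added to it.

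Other bZIP factors, which share partners with ATF4, were called in both directions with TGFβ, 11 higher and 8 lower of 33. JUNB and JUN, subunits of AP-1, rose to 321 ± 18.4 and 209 ± 6.2 CPM from 64.1 ± 6.25 and 52.3 ± 7.44 in vehicle cells, and CEBPD, a relative of CEBPB, fell by 2.09 on the log2 scale. With Aramchol 1 of the 33 was called, CREB5, a CRE-binding factor (log2 0.98, adjusted p = 0.0292, edgeR; 2 genes with the replicate block), and on top of TGFβ 4 rose and 1 fell (8 called with the block), CREB5, JUND and CEBPD having the smallest p values, with log2 values of 1.45, 0.48 and 0.60. The CREB5 call with Aramchol was lost without vehicle library 1 or 2 or Aramchol library 1 or 3, and the 5 calls on top of TGFβ became 1 without library 1 of both agents, 2 or 3 without any 1 TGFβ library or library 2 of both agents, and 9 without vehicle library 3. Of 16 other brakes and sensors of mTORC1, 1 rose (SESN1, log2 0.52) and 3 fell with TGFβ, TSC2 by 0.49 among them. Of all genes, 18.9% rose and 18.1% fell there. The median log2 of the list was -0.10, against -0.03 over all genes. SESN1 is also on the list of p53 targets below. In the 2 Aramchol comparisons edgeR called none of the 16, with 3 and 1 at an unadjusted p under 0.05. DESeq2 or the block called 1 and 0 of them.

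Lists for other signals known to reach DDIT4 and SESN2 were read too. Of 12 hypoxia targets 9 rose with TGFβ and none fell, with BHLHE40, a repressor of the clock, at 384 ± 6.91 against 59.4 ± 2.74 CPM, and 1 (BHLHE40) was called with Aramchol (4 with the replicate block, 0 without vehicle library 1 or 2, TGFβ library 2 or any Aramchol library). Of 16 p53 targets 11 rose with TGFβ and 1 fell, CDKN1A (the cell cycle inhibitor p21) standing at 768 ± 64.2 against 184 ± 30.3 CPM, and 0 were called with Aramchol (edgeR; 2 at an unadjusted p under 0.05, 1 by DESeq2, 1 with the block and 1 without vehicle library 3). Of 8 glucocorticoid targets 2 rose and 4 fell with TGFβ, while PER1 and TSC22D3 rose with Aramchol (log2 0.49 and 0.40, adjusted p = 0.00343 and 0.0159, edgeR) and, with KLF9, when Aramchol was added to TGFβ (6 called with the block or without vehicle library 3). The 2 calls with Aramchol became 1 without vehicle library 1 or 2 or Aramchol library 2. When Aramchol was added to TGFβ, edgeR called none of the 12 hypoxia targets (median log2 -0.14). Of the 16 p53 targets it called 2, both lower (median -0.15). These were MDM2 and TP53I3, with log2 values of -0.43 and -0.40 (adjusted p = 0.0110 and 0.0324, edgeR). Without 1 library, 0 to 2 p53 targets and 0 to 1 hypoxia targets were called, and 2 to 5 and 0 to 5 in the other alternatives. The part of the hypoxia, p53 and glucocorticoid signals in the values of DDIT4 and SESN2 was not tested. Fibroblast markers moved with TGFβ too, their summed level standing at 71.7 to 92.1 CPM in vehicle libraries and 354 to 461 CPM with TGFβ, with mean levels of 47.7 and 205 CPM for PDGFRB, a growth factor receptor gene, and 18.1 and 160 CPM for COL1A2, a collagen gene. PDGFRA had means of 9.96 and 6.64 CPM and DCN of 7.60 and 7.74 CPM, and 5 of the 6 reached 1 CPM in vehicle cells and 6 with TGFβ. Of 13 mitochondrially encoded genes, which serve as a sign of RNA quality, 2 rose with TGFβ, 0 were called with Aramchol (edgeR; 2 at an unadjusted p under 0.05, 2 by DESeq2, 2 with the block and 2 without vehicle library 3) and 1, MT-CO1, fell when Aramchol was added to TGFβ (3 called with the block or without vehicle library 3, 0 without any 1 TGFβ library or library 1 or 2 of both agents). When only vehicle and Aramchol libraries were fitted, no gene of these lists other than 2 ATF4 targets was called with Aramchol. The part of the fibroblast markers and of the mitochondrial genes in the results was not tested.

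Over the 12 libraries, the protein coding genes most like ATF4 were TARS1, MARS1, GPT2 (a transaminase) and GARS1, with root mean square differences of 0.0886 to 0.0968 in log2 CPM after each gene was centred on its vehicle mean. They were the nearest of 10691 genes compared, with a mean of 5 CPM or more. GPT2 read 32.3 ± 2.25 CPM with vehicle, 42.2 ± 2.07 with TGFβ, 41.6 ± 1.07 with Aramchol and 49.1 ± 3.44 with both. MARS1 and GPT2 were also the nearest to TRIB3 (0.138 and 0.154), followed by INSIG1 and SQLE, both genes of sterol control and synthesis. RALB, OSBPL9, LEMD3 and AKNA were the nearest to ATF3 (0.0716 to 0.0768). For DDIT3 they were CDCP1, PRKAR1B, KLF6 and ACTR3B (0.0923 to 0.102). Among the 10 regulators the closest pairs were DDIT3 with PPP1R15A (0.103), ATF4 with TRIB3 (0.125) and ATF4 with CEBPG (0.131).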

How the data were processed

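The 12 libraries were H69 cells in 4 groups of 3, grouped by the labels. Trizol was used for the RNA and the IDT 2S Plus kit for the libraries, per the labels' protocols. The submitters' processing notes name STAR 2.7.9a, featureCounts of Subread, DESeq2 and the build GRCh38. Strand setting and annotation release: not given in the sources used here. The authors deposited counts, whole reads per gene and library, and all values come from these. Genes were filtered with filterByExpr (21567 of 62703 kept), given TMM factors (0.930 to 1.09) and modelled in edgeR 4.0.16 (limma 3.58.1, R 4.3.3) with 1 mean for each group, all 12 libraries sharing the spread (coefficient of variation 8.90%). RPKM used the length column of the table. Log2 CPM used a prior count of 2. A floor of 3 counts was chosen for each library, which was 0.0427 to 0.0574 CPM, and lower levels can occur in the counts. This floor covers counting error only. No 2 libraries of a group were duplicates.

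The members, lists, motifs and tests were chosen with earlier results of these data known. Named genes were the 10 regulators, from each list the 3 with the smallest p in a comparison (plus the eIF2 kinases), and the 4 genes most like each of ATF4, ATF3, TRIB3 and DDIT3. Markers, overlapping neighbours and copies of the regulators were named as such. Deviations of same-numbered libraries correlated at 0.00784 to 0.274 between vehicle and TGFβ, so those numbers were not taken as pairs. They correlated at 0.147 to 0.545 in the other 4 comparisons of groups. Between TGFβ and both agents, libraries 1 and 2 correlated more with the other number (0.211 and 0.291) than with their own. The pairing by number comes from the data and not from the labels. Alternatives were scaling by RLE or by the upper quartile, DESeq2 1.42.0, fits without a filter or with a stricter one (10 counts in 3 libraries and a mean CPM of 1), the replicate block, fits of the compared groups alone, fits without 1 library, a term for number 3, and libraries 1 and 2 alone. The fits were tested on simulated data. Start-site windows came from RefSeq (GRCh38.p14), and all 10 genes had one. Tables and figures were made in Python 3.11.15 (matplotlib 3.10.9, numpy 2.4.6, pandas 2.3.3). One marker gene is not reported here.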

Additional observations from a re-analysis of the deposited data

How the results depend on the processing

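Of 60 values (10 regulators in 6 comparisons), 25 were called, 18 kept their call in all 12 fits that left out 1 library and 16 in all alternatives, and none of the 25 changed sign. The number of regulators called for Aramchol on top of TGFβ was 5 in place of 3 with no filter, with the replicate block, with a term for number 3 and with libraries 1 and 2 alone. For Aramchol against vehicle it was 0 in place of 3 with only those 2 groups fitted, where 5 genes of all passed in place of 77; for TGFβ + Aramchol against Aramchol it was 3 to 6 when 1 library was left out, with 3 without Aramchol library 2 or TGFβ + Aramchol library 3. The cause was not tested. Without the replicate block, TGFβ against vehicle called 6 regulators, and with it 6 (7978 and 9090 genes of all); TGFβ + Aramchol against vehicle called 7 and 9 (7593 and 8709). All genes called were 77 and 486 for Aramchol against vehicle and on top of TGFβ, 464 and 1519 with the block, 531 and 1278 with no filter, 396 and 1045 with DESeq2, 538 and 1683 with a term for number 3, 1544 and 1853 with libraries 1 and 2 alone, and 16 to 611 and 55 to 1209 with 1 library left out, the highest values being those without vehicle library 3. The interaction had 3 such genes, 151 with no filter, 30 with DESeq2, 23 with the block, 31 with a term for number 3, 191 with libraries 1 and 2 alone, and 0 to 7 with 1 library left out. With upper quartile scaling, TGFβ against vehicle had 3601 genes higher and 4553 lower in place of 4070 and 3908, Aramchol against vehicle 37 and 38 in place of 51 and 26, and both agents against vehicle 3252 and 4410 in place of 3928 and 3665. Uncalled log2 values that changed sign were DDIT3 in TGFβ + Aramchol against Aramchol with upper quartile scaling (-0.0196), the CEBPG interaction with upper quartile scaling (0.00710) and a stricter filter (0.00767), and, with libraries 1 and 2 alone, ATF3 with Aramchol (0.0812) and the interactions of TRIB3 (0.0701) and CEBPB (0.0530). With 1 library left out, CEBPB ran from -0.178 to 0.119 with TGFβ, -0.210 to 0.0867 with Aramchol, -0.266 to 0.0308 with both against vehicle, -0.164 to 0.0261 with both against Aramchol and -0.175 to 0.122 in the interaction. ATF3 with Aramchol ran from -0.0590 to 0.0514, PPP1R15A from -0.0213 to 0.186 with TGFβ and -0.0448 to 0.175 in the interaction, the interactions of CEBPG and TRIB3 from -0.0511 to 0.0451 and -0.191 to 0.0142, and DDIT3 with both against Aramchol from -0.0924 to 0.128. Leaving out a library leaves 2 in its group, which share the spread of the other groups.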
